A study of Rattus norvegicus with 2 samples.

Results

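The 39 genes described here make up the folding and export line of the endoplasmic reticulum (ER). They were chosen by name from what their products are known to do, with earlier results of these data known. A row was found for 38 of them among the 17337 genes of the table, and the remaining gene, Mia3, was not analysed here. They were divided into 5 roles, namely 13 chaperones and folding enzymes, 7 unfolded protein response factors, 6 translocon genes, 8 genes of COPII transport and 5 retrieval and cargo receptors. The libraries came from acetabular cartilage, the cartilage of the hip socket, of 3-week-old Wistar rats. The DA-DDH library held RNA combined from 5 rats in a disarticulation model of developmental dysplasia of the hip. Their hind limbs had been swaddled for the first 10 days of life, apart from several hours at each change of tape, and then left free. The control library held RNA combined from 4 littermate rats that were never restrained. Sex was not evaluated by the study, and no transgene or drug was involved. The tissue was dissected bilaterally, and some neighbouring tissue may remain in it. Since each condition is 1 pooled library, variation between animals is unknown and no p-values are given.

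Secreted and membrane proteins enter the ER through the Sec61 channel, are folded there by chaperones and disulfide isomerases, and leave in vesicles coated by COPII. Escaped ER residents are carried back by KDEL receptors. When unfolded protein accumulates, the unfolded protein response raises the transcripts of much of this machinery through Atf6, Xbp1 and Atf4. Chondrocytes depend on it heavily because they export large amounts of collagen and proteoglycan, and loss of Creb3l2 in mice or of sec23a in zebrafish impairs the secretion of cartilage matrix.

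Reads were compared as log2 ratios of DA-DDH over control after TMM scaling, a factor per library that leaves out the most extreme genes, with a prior of 0.5 reads. The brackets give 95% exact intervals, which cover counting error only. A gene was called when it lay past 2-fold, and a gene was used if its higher read number was 30 or more. Under this floor were Dnajb9, Sdf2l1, Creld2 and Ddit3, which left 34 members. In total reads, the DA-DDH library had 833869 and the control library 796723.

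On the TMM scale, transcripts of the ER machinery were slightly lower in the DA-DDH library as a group, and most were close to even. Of the 34 members, 29 had a log2 ratio below 0, where 47.4% of all 4375 genes at the same floor were below 0, and with total-read scaling only 12 of the 34 were. Of the 34, 30 lay below the median of all genes, as 50% of all genes do by construction, and this count cannot change with scaling, which shifts every gene alike. The median of the members was -0.24 and that of all genes 0.03, a gap of -0.28. A single member, Sar1b, was over 2-fold higher, against 4.82% of all genes, and 0 members were over 2-fold lower, against 3.04% of all genes. No test was run behind these counts. At a threshold of 1.5-fold, 4 members were lower and 1 higher, against 10.3% and 14.4% of all genes. The interval lay below 0 for 17 members and above 0 for 1, whereas 14.1% and 13.8% of all genes had such intervals. For 28 members the interval lay wholly within 2-fold either way, which held for 58.9% of all genes. Thus, at this depth, a doubling or halving was outside the counting interval of most members.

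**Figure D1:**
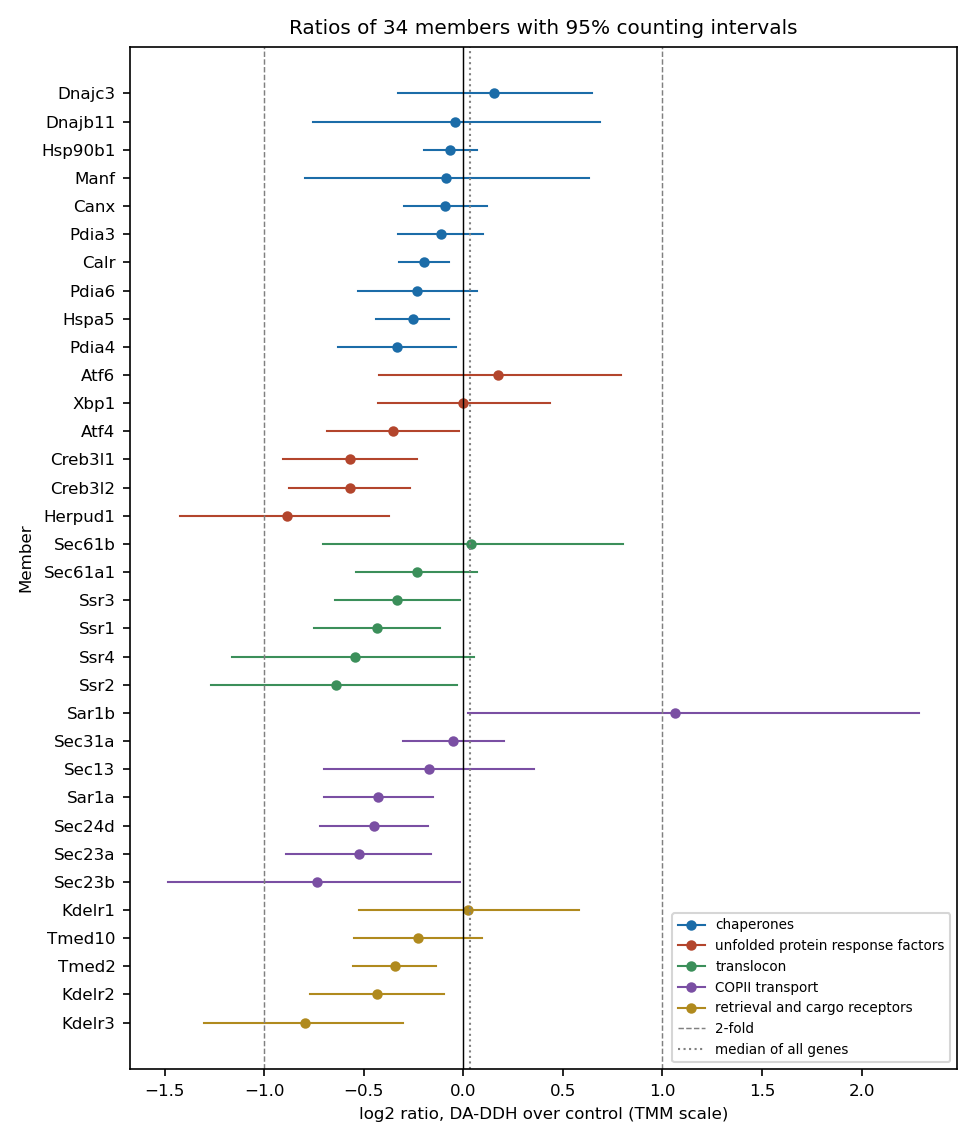
Log2 ratio of DA-DDH over control on the TMM scale for the 34 members, grouped and coloured by role, with 95% exact counting intervals as bars. Dashed lines mark 2-fold and the dotted line the median of all genes at 0.03, and 29 of the 34 points lie left of 0.

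Markers of cell types also differed between the libraries. The 9 chondrocyte markers, led by Col2a1, were detected in both libraries, as the cartilage label implies, and all 9 were lower in DA-DDH, with 111804 summed reads against 261463 in control. Markers of skeletal muscle had 2238 summed reads in DA-DDH and 739 in control, with 8 of 9 at the floor above 0. For endothelium the sums were 927 in DA-DDH and 292 in control, with 8 of 8 above 0. For macrophages they were 618 in DA-DDH and 173 in control, with 4 of 4 above 0. Of all genes at the floor, 47.4% were below 0. Mylpf, Tek, Vwf, Emcn, Egfl7, Cd14, Mrc1 and Csf1r met the floor only through the DA-DDH library. For these genes the floor itself favoured a high ratio. The sums take in all markers with a row, under the floor or not. Fibroblast markers had 3234 summed reads in DA-DDH and 2121 in control, with 6 of 7 above 0, and osteoblast markers 1908 and 1226 in DA-DDH and control, with 2 of 5. On the TMM scale these sums gave log2 ratios of only 0.12 (0.04 to 0.20) for fibroblast and 0.15 (0.04 to 0.25) for osteoblast markers. Spp1 led the osteoblast markers, with 1081 reads in DA-DDH and 498 in control. Of the 5 osteoblast markers at the floor, 3 had an interval below 0 and 1, Spp1, above 0. The immediate early genes, 9 of 9 below 0, had 512 reads in DA-DDH and 1167 in control. Of these genes, Fosb, Ier2, Zfp36 and Btg2 met the floor only through control, so the floor itself favoured a low ratio. Markers listed for plasma and B cells, which are rich in ER, had 12 reads in DA-DDH and 4 in control, with Ms4a1 and Tnfrsf17 at 0 in both. Of these reads, 6 in DA-DDH and 4 in control were from Derl3, which was also listed with ER-associated degradation. The part of cell composition in the ratios of the ER genes was not tested.

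The position of the members relative to other genes differed with depth. Among genes with 30 to 99 reads in the library with more, 13 members had a median of -0.09 and all 3062 genes one of 0.05. Among genes with 100 or more but fewer than 300 reads, all 14 members were below 0, with a median of -0.39, beside 0.00 for all 1016 genes. Of the 297 genes with at least 300 reads, 54.5% were below 0, and the median of all 297 was -0.05. All 7 members at this depth were below 0, with a median of -0.11, so they lay close to genes of like depth. The same genes can also be read as a share of the library. Member reads were 0.904% of all DA-DDH reads (95% exact binomial interval 0.884 to 0.925) and 0.797% of all control reads (0.777 to 0.816). Col2a1, the type II collagen gene, held 11.4% of the DA-DDH and 29.3% of the control reads. Once its reads were set aside the members made up 1.02% of the DA-DDH and 1.13% of the control reads, so the order of the libraries turned with the inclusion of this 1 gene. In bulk tissue, fewer cells of a type and less RNA per cell cannot be told apart.

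Levels between genes were compared as RPKM, reads per kb of exon scaled to the TMM library size. Calr was highest at 627 in the DA-DDH and 720 in the control library, and Hsp90b1 was next at 398 and 417. In the DA-DDH library Pdia3 (231), Hspa5 (216) and Tmed2 (209) followed, and their counting intervals overlapped. The control order of these genes was Tmed2 (266), Hspa5 (258) and Pdia3 (250), again with overlapping intervals. The lowest of the 34 were Sec23b at 11.6 in the DA-DDH library and Sar1b at 12.6 in the control library. The highest level exceeded the lowest 53.9-fold in the DA-DDH and 57.3-fold in the control library. Most neighbours in the order could not be separated: 30 of 33 adjacent pairs overlapped in the DA-DDH library and 29 of 33 in the control library.

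**Figure D2:**
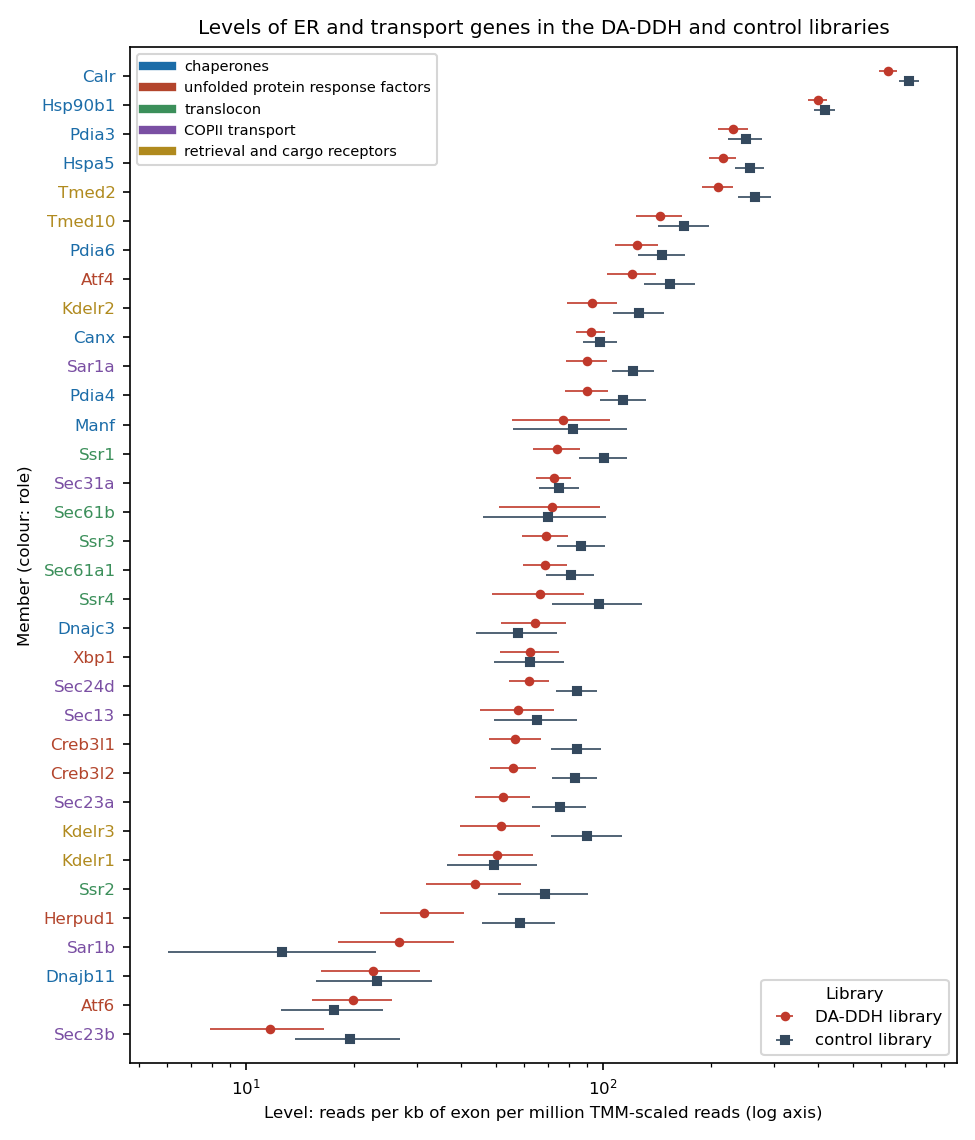
Level of each of the 34 members in RPKM on the TMM scale, on a log axis, with DA-DDH as circles and control as squares and 95% Poisson counting intervals as bars. Calr at 627 in DA-DDH and 720 in control is highest, and the circles lie left of the squares in 29 of 34 members.

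The chaperones were the role closest to even on the TMM scale. Their 10 members with enough reads had log2 ratios between -0.33 and 0.15 and a median of -0.10, with 9 below 0. With total-read scaling all 10 were above 0, and the median turned to 0.32. Summed over all 13, they had 4225 reads in the DA-DDH and 3342 in the control library, a log2 ratio of -0.15 (-0.22 to -0.09). Hspa5 encodes BiP, the Hsp70 of the ER and the standard reporter of ER stress. On rn6 it lies at chr3:13838304-13842763 and had 535 reads in DA-DDH and 454 in control, with a log2 ratio of -0.25 (-0.44 to -0.07). Hsp90b1, which encodes GRP94, had 1079 reads in DA-DDH and 803 in control, at -0.07 (-0.20 to 0.07). Both reporters therefore lay far inside 2-fold, and neither was higher in DA-DDH on this scale. On the total-read scale they were at 0.17 and 0.36.

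The lectin chaperones hold newly made glycoproteins until they are folded. Calr, calreticulin, had the most reads of any member, 1131 in DA-DDH and 923 in control, at -0.20 (-0.33 to -0.07). Canx, its membrane-bound relative calnexin, had 444 reads in DA-DDH and 336 in control, at -0.09 (-0.30 to 0.12). Disulfide isomerases form and reshuffle disulfide bonds. Pdia3, which works with both lectins, had 417 reads in DA-DDH and 321 in control, at -0.11 (-0.33 to 0.10). Pdia6 had 207 in DA-DDH and 173 in control, at -0.23 (-0.53 to 0.07). Pdia4 was lowest of the role, with 202 and 181 reads in DA-DDH and control and a log2 ratio of -0.33 (-0.63 to -0.04). The intervals of these 5 genes overlapped one another.

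J-domain proteins bring clients to BiP and start its ATP cycle. Dnajc3 was the only chaperone above 0 among the 10 at the floor, with 94 reads in DA-DDH and 60 in control, at 0.15 (-0.33 to 0.65). Dnajb11 had 41 reads in DA-DDH and 30 in control, at -0.04 (-0.76 to 0.69). Dnajb9, a co-chaperone that restrains the sensor Ern1, had 13 reads in each library. Manf, a stress-induced protein that binds BiP, had 41 reads in DA-DDH and 31 in control, at -0.09 (-0.80 to 0.63). Of the stress-induced genes Sdf2l1 and Creld2, the first had 7 reads in DA-DDH and 0 in control, where a count of 0 allows up to 3 reads. Creld2 had 14 reads in DA-DDH and 17 in control. Reads this few do not settle the direction of Dnajb9 or Creld2.

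Promoter sequence was not used to choose these genes, although several are in the list as known targets of the unfolded protein response, so shared elements are described and not tested. RefSeq promoters on build GRCr8, from 250 bases before to 50 after the annotated start, were matched by symbol for 31 of the 39 members. They were searched on both strands for elements known from mammalian unfolded protein response genes. The ER stress element, ERSE, was searched as CCAAT and CCACG spaced by 9 bases, ERSE-II as ATTGG and CCACG spaced by 1 base, and the core of the UPRE as TGACGTGG. No match overlapped another. ERSE was found in 7 of the 31 member promoters (22.6%) and in 22 of all 33469 promoters (0.0657%). ERSE-II stood in 2 member promoters and in 0.0508% of all, and the UPRE core in 2 and in 0.595%. Together, 11 members (35.5%) held an element, against 0.708% of all promoters. A match is a description of the letters and not a shown binding site. For the 2 reporters the 250 bases before the start are printed, since both are read as markers of ER stress, and for the other 9 genes a shorter stretch around the match. Sequences run in the direction of the gene, with the matched element in capitals.
Hspa5 (chr3:38452766-38453015, plus strand): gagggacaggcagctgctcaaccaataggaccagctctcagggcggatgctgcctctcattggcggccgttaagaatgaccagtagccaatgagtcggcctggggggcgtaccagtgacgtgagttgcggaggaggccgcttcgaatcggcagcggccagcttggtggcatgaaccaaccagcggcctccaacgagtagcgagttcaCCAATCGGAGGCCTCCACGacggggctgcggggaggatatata
Hsp90b1 (chr7:23012294-23012543, minus strand): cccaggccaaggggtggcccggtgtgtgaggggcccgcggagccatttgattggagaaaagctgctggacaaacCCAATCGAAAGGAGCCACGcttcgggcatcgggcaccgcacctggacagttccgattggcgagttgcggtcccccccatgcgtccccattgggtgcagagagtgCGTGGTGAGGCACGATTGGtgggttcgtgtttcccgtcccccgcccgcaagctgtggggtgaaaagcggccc
Creld2 (chr7:121789219-121789277, plus strand): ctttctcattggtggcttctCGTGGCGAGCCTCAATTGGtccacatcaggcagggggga
Canx (chr10:35158049-35158107, minus strand): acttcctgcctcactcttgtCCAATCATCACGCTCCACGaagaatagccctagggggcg
Xbp1 (chr14:84604538-84604596, plus strand): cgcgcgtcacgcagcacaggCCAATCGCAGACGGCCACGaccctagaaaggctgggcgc
Dnajc3 (chr15:102432514-102432572, plus strand): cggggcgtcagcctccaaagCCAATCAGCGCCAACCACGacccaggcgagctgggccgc
Calr (chr19:40213117-40213173, plus strand): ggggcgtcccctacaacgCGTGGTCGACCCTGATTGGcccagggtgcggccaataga
Dnajb11 (chr11:91672800-91672830, minus strand): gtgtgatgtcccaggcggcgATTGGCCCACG
Herpud1 (chr19:10614801-10614851, minus strand): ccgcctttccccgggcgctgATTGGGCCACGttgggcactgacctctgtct
Sec23a (chr6:82440968-82441015, minus strand): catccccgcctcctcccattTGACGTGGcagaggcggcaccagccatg
Kdelr3 (chr7:112959511-112959558, plus strand): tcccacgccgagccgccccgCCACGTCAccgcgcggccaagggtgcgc

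The chaperones held most of these elements, with an ERSE in 6 and an ERSE-II in 1 of their 10 matched promoters. The ERSE began 43 bases before the start in Hspa5, 176 and 72 in Hsp90b1, 145 in Creld2, 230 in Canx, 133 in Dnajc3 and 232 in Calr. Dnajb11 had an ERSE-II that began 10 bases before the start and ended on it. Among the response factors, Xbp1 had an ERSE 65 bases and Herpud1 an ERSE-II 124 bases before the start. Sec23a and Kdelr3 had the UPRE core 91 and 101 bases before it, and none of the 5 matched translocon promoters held any of the 3 elements. The 6 ERSE genes with at least 30 reads had log2 ratios between -0.25 and 0.15, with a median of -0.08. The 10 members with any of the elements ranged from -0.89 to 0.15 around a median of -0.14, and the 16 with none from -0.74 to 1.06 around -0.34. These ranges overlapped, and no test was made between them.

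**Figure D3:**
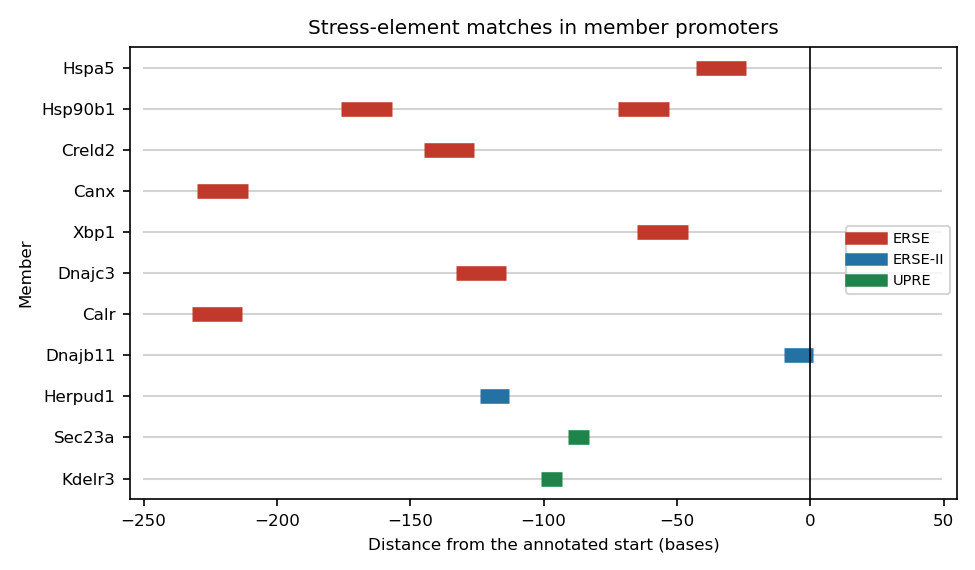
Position of ERSE, ERSE-II and UPRE core matches in the promoters of the 11 members that hold one, as distance in bases from the annotated start at 0. Hsp90b1 holds 2 ERSE matches, and the match closest to the start is that of Dnajb11, which begins 10 bases before the start and ends on it.

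The response factors had lower ratios than the chaperones. Their 6 members with enough reads had a median log2 ratio of -0.46, with 5 below 0, and with total-read scaling the median was -0.04. The low end was set by Herpud1 and by the Creb3l pair, and Atf6 and Xbp1 were near 0. Atf6, a membrane-bound factor released by cleavage in the Golgi, had 62 reads in DA-DDH and 39 in control, at 0.18 (-0.42 to 0.79). Xbp1, which becomes active when Ern1 splices its transcript, had 111 reads in DA-DDH and 79 in control, at 0.00 (-0.43 to 0.43), which before rounding fell just below 0. Reads per gene show neither that cleavage nor that splicing. Atf4, which is mainly controlled through its translation, had 164 reads in DA-DDH and 149 in control, at -0.35 (-0.68 to -0.02). Ddit3, the proapoptotic factor CHOP, had 19 reads in DA-DDH and 14 in control, too few for the floor, and its exons overlap those of Mars by 62 bases.

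Herpud1, an ER membrane protein of the degradation machinery and a common target of the response, was the lowest of all 34 members. It lies on rn6 at chr19:11046907-11057254 and had 56 reads in DA-DDH and 74 in control, at -0.89 (-1.42 to -0.37). Creb3l1 and Creb3l2 encode OASIS and BBF2H7, transcription factors that are anchored in the ER membrane and serve bone and cartilage in mice. Creb3l1 had 145 reads in DA-DDH and 153 in control, at -0.57 (-0.91 to -0.23). Creb3l2, on rn6 at chr4:64869285-64981519, had 178 reads in DA-DDH and 188 in control, also at -0.57 (-0.87 to -0.27). With total-read scaling Herpud1, Creb3l1 and Creb3l2 were at -0.46, -0.14 and -0.14. All 3 kept their sign, but the values of Creb3l1 and Creb3l2 lay above their TMM-scale intervals.

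All 6 translocon genes reached the floor, and 5 were below 0, with a median of -0.38 that turned to 0.04 with total-read scaling. Sec61a1, the pore of the channel, had 202 reads in DA-DDH and 169 in control, at -0.23 (-0.54 to 0.07). Sec61b, a small subunit of the same channel, had 39 in DA-DDH and 27 in control, at 0.04 (-0.71 to 0.80). Sec61b met the floor only through the DA-DDH library, so the floor itself favoured a high ratio. The Ssr genes encode the translocon-associated protein complex, which helps many signal peptides enter, and all 4 were lower in DA-DDH on the TMM scale. Ssr1 had 174 reads in DA-DDH and 167 in control, at -0.43 (-0.75 to -0.12), and Ssr3 had 181 and 162 in DA-DDH and control, at -0.33 (-0.65 to -0.02). Ssr2 had 44 reads in DA-DDH and 49 in control, at -0.64 (-1.27 to -0.03), and Ssr4 had 47 and 49 in DA-DDH and control, at -0.55 (-1.16 to 0.06). With total-read scaling Ssr3 turned to 0.09 and the others of the complex stayed below 0.

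In COPII transport, the inner coat genes had lower ratios than those of the outer coat. Each inner coat interval overlapped both outer coat intervals. Overlap between single genes does not compare the groups, and no test was made between them. The 7 measured genes had a median of -0.43, which moved to -0.0013 with total-read scaling, and 6 of them were below 0. Sec23a, an inner coat subunit, had 126 reads in DA-DDH and 129 in control, at -0.52 (-0.89 to -0.16). Its paralog Sec23b had 31 reads in DA-DDH and 37 in control, at -0.74 (-1.48 to -0.02). Sec24d, which picks cargo into the coat, lies on rn6 at chr2:227455723-227562801 and had 233 reads in DA-DDH and 226 in control, at -0.45 (-0.72 to -0.18). For both outer coat genes the interval included 0. Sec31a had 311 reads in DA-DDH and 229 in control, at -0.05 (-0.30 to 0.20), and Sec13, which also serves the nuclear pore, had 71 and 57 in DA-DDH and control, at -0.17 (-0.70 to 0.35).

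The GTPases Sar1a and Sar1b start the assembly of the coat. Sar1a had 229 reads in DA-DDH and 219 in control, at -0.43 (-0.70 to -0.15). Sar1b, on rn6 at chr10:37215989-37245603, had 30 reads in DA-DDH and 10 in control, at 1.06 (0.02 to 2.29), and was the only member past 2-fold. Sar1b met the floor of 30 reads exactly, and only through the library where it was high, so the floor itself favoured a high ratio. With a prior of 2 reads no member was past 2-fold higher. These paralogs are similar in sequence, and reads that fit both could have been lost or shared in the authors' counting.

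Of the 5 retrieval and cargo receptors, 4 were below 0, with a median of -0.35 that turned to 0.08 with total-read scaling. The KDEL receptors return escaped chaperones from the Golgi. Kdelr1 had 70 reads in DA-DDH and 49 in control, at 0.02 (-0.52 to 0.58). Kdelr2 had 153 reads in DA-DDH and 147 in control, at -0.43 (-0.77 to -0.10). Kdelr3, on rn6 at chr7:120749680-120760161, had 63 reads in DA-DDH and 78 in control, at -0.79 (-1.30 to -0.30), second lowest of all members after Herpud1. Tmed2 and Tmed10 are p24 proteins that sort cargo into vesicles. Tmed2 had 395 reads in DA-DDH and 357 in control, at -0.35 (-0.56 to -0.14), and Tmed10 had 179 and 149 in DA-DDH and control, at -0.23 (-0.55 to 0.10). With total-read scaling Kdelr3 stayed below 0 at -0.37, and Tmed2 and Tmed10 turned to 0.08 and 0.20.

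A ratio of reads between 2 genes of the same library needs no scaling, so partners were compared in this way. Of 14 pairs set up by paralogy or shared function, 13 had a log2 odds ratio whose 95% exact interval included 0. In the exception there were 7.63 Sar1a reads per Sar1b read in the DA-DDH and 21.9 in the control library, a log2 odds ratio of -1.52 (-2.75 to -0.40), which rests on the same few Sar1b reads. The Creb3l pair kept its balance most closely, at 0.815 Creb3l1 reads per Creb3l2 read in DA-DDH and 0.814 in control (log2 odds ratio 0.00, -0.46 to 0.46). Kdelr3 reads per Kdelr2 read were 0.412 in DA-DDH and 0.531 in control (-0.36, -0.98 to 0.24). Hspa5 reads per Hsp90b1 read were 0.496 in DA-DDH and 0.565 in control (-0.19, -0.42 to 0.04). An interval that includes 0 does not show that a pair moved alike, and for Ddit3 over Atf4 it ran from -0.83 to 1.46.

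The distance between chaperones and the other roles was measured in the same way, a comparison chosen after the values were seen. There were 1.27 chaperone reads per read of all other members in the DA-DDH and 1.11 in the control library, a log2 odds ratio of 0.20 (0.10 to 0.30). Against the response factors the chaperones stood at 5.75 chaperone reads per read in DA-DDH and 4.80 in control, at 0.26 (0.09 to 0.43). The log2 odds ratios against the translocon, COPII transport and the receptors were 0.20 (0.02 to 0.37), 0.15 (0.01 to 0.30) and 0.20 (0.04 to 0.35). The differences are small, and variation between like libraries is not part of these intervals.

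Further genes of the pathway, from 6 lists chosen by function with earlier results known, were mostly below 0 on the TMM scale. Of 109 genes with a row, 81 reached the floor, and 56 of these were below 0, with a median of -0.20, where 47.4% of all genes were below 0. Past 2-fold, 1 was higher and 1 lower, against 4.82% and 3.04% of all genes. Their summed reads gave a log2 ratio of -0.24 on the TMM scale and 0.18 with total-read scaling, and with total-read scaling the sums of all 6 lists were above 0. Of the further COPII and ER-Golgi genes, 15 of 17 were below 0, with a median of -0.39. The lowest was Gosr2, a SNARE of the early Golgi, with 23 reads in DA-DDH and 37 in control, at -1.16 (-2.00 to -0.39). Gosr2 met the floor only through the control library, so the floor itself favoured a low ratio. Lman1, a cargo receptor for glycoproteins, was at -0.68 with 174 reads in DA-DDH and 199 in control. Sec16a, which organizes ER exit sites, was at -0.64 with 256 and 284 reads in DA-DDH and control.

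In the COPI coat, which drives traffic back to the ER, 8 of 12 genes were below 0, with a median of -0.15. Its subunit gene Cope had the highest ratio of the 81 pathway genes, with 65 reads in DA-DDH and 18 in control, at 1.34 (0.59 to 2.20), whereas Copz2 was at -0.88 and Copa at -0.36. Genes of signal peptide handling, targeting and glycosylation had a median of -0.19, with 12 of 18 below 0. Rpn1, a subunit of the oligosaccharyltransferase, was at -0.57 with 436 reads in DA-DDH and 462 in control, and Tram1 was at -0.53. Spcs3 of the signal peptidase was at 0.92 (-0.02 to 1.98) with 35 reads in DA-DDH and 13 in control. Cope and Spcs3 met the floor only through the DA-DDH library, where they were high, so the floor itself favoured a high ratio. ER-associated degradation, which removes misfolded proteins, had 9 of 12 genes below 0 and a median of -0.23. Its lowest genes were the lectin Erlec1 at -0.96, Derl1 at -0.82 and Vimp at -0.69.

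Of the further ER folding genes, 6 of 13 were below 0, with a median of 0.14, whereas their summed reads gave -0.25 (-0.35 to -0.16). P4hb, a disulfide isomerase and collagen prolyl hydroxylase subunit named after its values were seen, had the most reads of the list, 828 in DA-DDH and 825 in control, at -0.49 (-0.63 to -0.35). Cnpy2 and Txndc12 were lowest, at -0.95 and -0.87, and Erp44, which retains unassembled cargo, was highest at 0.54 (-0.03 to 1.15). Txndc12 met the floor only through the control library, with 29 reads in DA-DDH and 38 in control. The further response genes had 6 of 9 below 0 and a median of -0.52. The sensor Ern1 was at -0.73 (-1.56 to 0.05), Nfe2l2, the oxidative stress factor, at 0.85 (0.18 to 1.59) and Crebzf at 0.79 (-0.09 to 1.78). Nfe2l2 and Crebzf met the floor only through the DA-DDH library and Ern1 only through control, so the floor itself favoured their directions. Several textbook outputs of Atf4 and Ddit3 had few reads in both libraries and were named after their values were seen. Trib3 had 2 reads in DA-DDH and 0 in control, Chac1 had 1 in DA-DDH and 3 in control, Asns had 5 and 3 in DA-DDH and control, and Nupr1 had 0 in both. A change of these genes was not detectable at this depth. Other genes of the same list, also named after the values were seen, reached the floor. Ppp1r15a, a further output, had 32 reads in DA-DDH and 38 in control, at -0.73 (-1.465 to -0.023). The sensor Eif2ak3 had 86 in DA-DDH and 99 in control, at -0.69 (-1.13 to -0.26). Atf5 had 33 in DA-DDH and 30 in control, at -0.35 (-1.11 to 0.41).

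**Figure D4:**
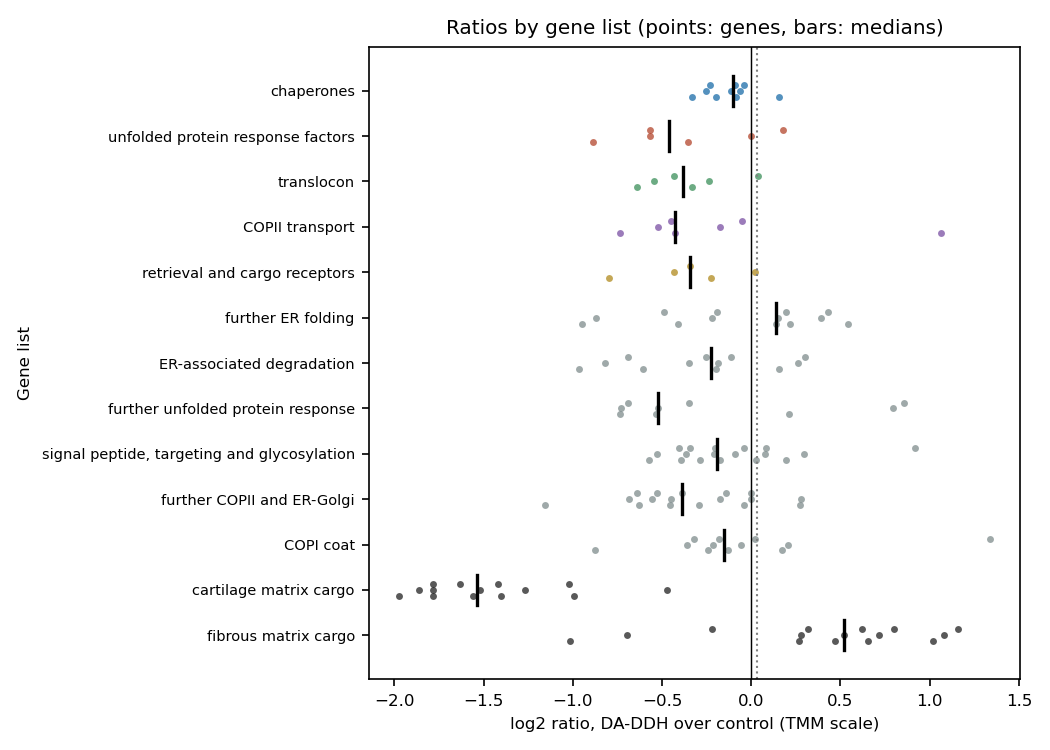
Log2 ratio of DA-DDH over control on the TMM scale for each gene that reached the floor, by gene list, with members coloured by role, further pathway genes in grey and matrix cargo in black. Bars are list medians, which run from -0.52 to 0.14 for machinery lists, beside -1.54 for cartilage matrix cargo and 0.52 for fibrous matrix cargo.

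The cartilage matrix cargo of this pathway differed between the libraries by more than the machinery did, and the direction of the member ratios depended on which cargo they were set against. Summed reads of 14 cartilage matrix genes, led by Col2a1 and Col11a1, were 121624 in DA-DDH and 280170 in control, a log2 ratio of -1.70. Those of 15 fibrous matrix genes, led by Col1a1 and Col3a1, were 142535 in DA-DDH and 95603 in control. This sum was at 0.08 on the TMM scale and 0.51 with total-read scaling. On the TMM scale 12 of the 15 genes were above 0, with a median of 0.52. Col1a1, Sparc and Thbs1 were below 0, at -0.22, -0.69 and -1.01, whereas Col3a1 was at 0.62. Per 100 reads of cartilage cargo there were 6.20 member reads in the DA-DDH and 2.27 in the control library, which is 2.73-fold more. Per 100 reads of fibrous cargo there were 5.29 in DA-DDH and 6.64 in control. Against both cargo lists together the members stood at 2.85 per 100 reads in DA-DDH and 1.69 in control, a log2 odds ratio of 0.76 (0.71 to 0.81) that does not depend on scaling. That difference depended on the inclusion of Col2a1. Without it, a version added after the values were seen, there were 4.46 member reads per 100 reads of both lists in DA-DDH and 4.47 in control, a log2 odds ratio of 0.00 (-0.05 to 0.05). By role it then ran from -0.17 (-0.32 to -0.02) for the response factors to 0.09 (0.02 to 0.16) for the chaperones. Against cartilage cargo without Col2a1 there were 28.6 member reads per 100 in DA-DDH and 13.7 in control, at 1.07 (1.01 to 1.12). Against fibrous cargo the log2 odds ratio was -0.33 (-0.38 to -0.28), so the even value for both lists without Col2a1 joined opposite differences.

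**Figure D5:**
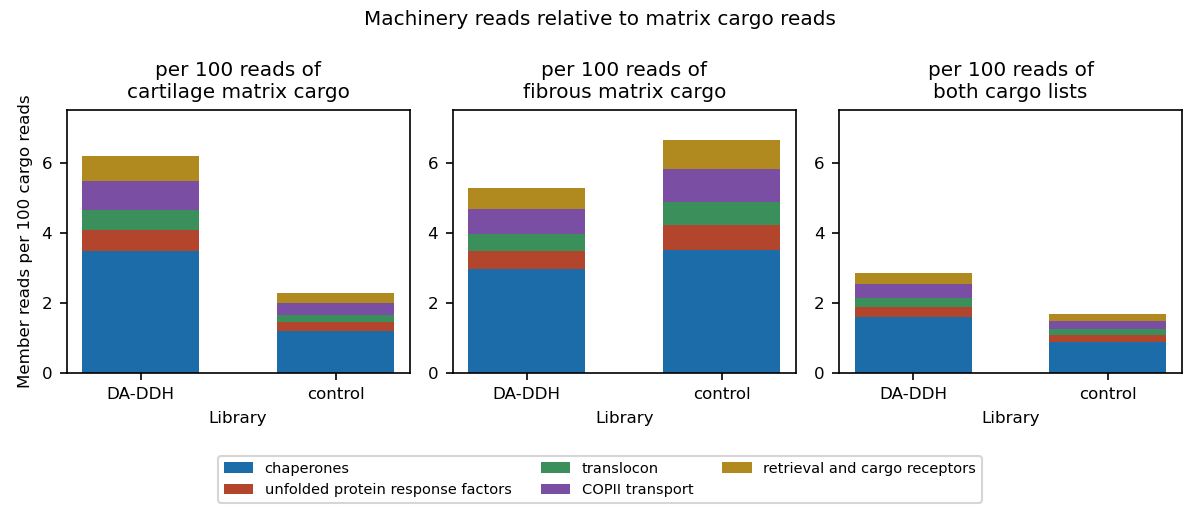
Member reads per 100 reads of cartilage matrix cargo, fibrous matrix cargo and both lists, in the DA-DDH and control library, stacked by role. The DA-DDH bar is higher against cartilage cargo (6.20 and 2.27 in DA-DDH and control) and lower against fibrous cargo (5.29 and 6.64), and the gap against both lists vanishes without Col2a1 (4.46 and 4.47, not drawn).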

How the data were processed

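The 39 genes, their roles and all other lists were chosen with earlier results of these data known. Per the labels, RNA of several rats was pooled into 1 library per condition, and the submitters' processing notes name rn6, TopHat and Cufflinks without versions. The assignment of reads to genes and its use of strand are not given in the sources used here, while the labels and the methods name different stranded library kits. The authors deposited a normalized signal per gene and library. All values (100%, relative tolerance 1e-06) were whole multiples of 0.855 (DA-DDH) and 1.20 (control), and reads were recovered by division, giving totals of 833869 for DA-DDH and 796723 for control. Gene names turned into dates stood in 26 lines and named no member. The deposited table also holds the authors' fold changes, p-values, q-values and ranks, which were not used.

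Ratios used TMM factors (1.16 for DA-DDH and 0.863 for control) from edgeR 4.0.16 in R 4.3.3, a prior of 0.5 reads scaled to library size, and a floor of 30 reads. Intervals are exact conditional intervals at 95% for ratios and odds ratios, exact Poisson for levels and Clopper-Pearson for shares, and were tested on simulated data. Every measured member is named with its reads, and the 3 genes furthest from 0 in each further list with their ratios. Of the members, 39 matched the RefSeq gene table, 31 had a promoter there, and 6 have named pseudogenes (Hsp90b1, Pdia4, Sec13, Kdelr1, Tmed2 and Tmed10), so their reads are less certain. Alternatives were other scalings, priors, floors and a 1.5-fold threshold, with DESeq2 1.42.0 for median-of-ratios scaling. Other computation ran in Python 3.11.15 with scipy 1.17.1, numpy 2.4.6 and pandas 2.3.3, and plots in matplotlib 3.10.9. Protein sequences were not used here.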

Additional observations from a re-analysis of the deposited data

How the results depend on the processing

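With scaling by total reads, which moved the median of all genes up by 0.42, the median log2 ratio turned to 0.18 for all members, 0.32 for chaperones, 0.044 for the translocon and 0.080 for the receptors, moved to -0.035 for response factors and to -0.0013 for COPII transport, and 12 members stayed below 0, while 17 of 34 changed sign. Leaving Col2a1 out of the total changed the sign of 6. Upper-quartile and median-of-ratios scaling and the deposited values changed the sign of 0 members. The number of members over 2-fold higher was 0 with a prior of 2 reads, 2 without a floor and 0 with a floor of 100 reads, and at 1.5-fold 4 members were lower. The count of members below the median of all genes and the gap between the medians were added after seeing the data and were 30 and between -0.27 and -0.28 under the other priors, 34 of 38 and -0.29 without a floor, and 20 of 21 and -0.32 with a floor of 100 reads. No paired analysis was possible because each condition has 1 library. Depth limits genes under 30 reads to statements on reads alone.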
